A study of Mus musculus with 16 samples.

Results

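Hematopoietic stem cells (HSCs) from the bone marrow of Selp-knockout mice were compared after culture with vehicle and directly after sorting. The comparison took all 14124 genes with enough counts of the 25239 in the gene count table, and 5 of the 16 RNA-seq libraries of the study: 3 SelpKO vehicle libraries and 2 SelpKO freshly sorted libraries. Mice of both genotypes, SelpKO and SelpWT, were 4 to 6 months old, and the cell type label of each library was hematopoietic stem cell. The vehicle cells belonged to the culture arm of the study, in which other cells received PSGL-1, the ligand of P-selectin, at 125 ng/mL for 24 hours. The labels do not give the length of the vehicle culture or what the vehicle was. The maintenance medium was StemSpan with SCF at 300 ng/mL, IL-11 at 20 ng/mL, Flt-3 ligand at 1 ng/mL, FCS at 10%, penicillin and streptomycin. The freshly sorted cells were labelled as untreated. The comparison therefore spans everything that separates cultured from uncultured cells (time outside the marrow, cytokines, serum and vehicle), and these cannot be told apart. The surface markers of the sort, the allele behind the knockout and the number of mice are not stated in the labels. Nothing ties a library to a mouse of its own, and p-values then reflect only the spread between libraries, which may be technical.

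HSCs keep the blood supplied for life, and in the marrow most of them rest outside the cell cycle. Cytokines such as SCF, acting through the receptor KIT, bring them into cycle in culture, and growth of this kind draws on new membrane lipid, nucleotides and protein. Selp encodes P-selectin, an adhesion receptor of platelets and endothelium that binds PSGL-1, the product of Selplg.

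The SelpKO libraries held 13481058 to 24690824 counts, and 11917 to 13207 genes reached 3 counts in each. Levels below are counts scaled to the library total (CPM). Selp, the targeted gene (chr1:164115264-164150026, GRCm38), stood at 5.48, 12.4 and 4.66 CPM in vehicle, against 0 and 2.34 CPM in fresh, while the 6 SelpWT vehicle and fresh libraries ranged from 16.8 to 139 CPM, above each of the 5 SelpKO libraries. Which exons the allele removes is not stated, so remaining counts cannot be read further. These SelpKO levels did not pass the test of vehicle against fresh (adjusted p = 0.552). Selplg was at 327, 435 and 245 CPM in vehicle, against 389 and 268 CPM in fresh (adjusted p = 1). Fresh replicate 1 differed from fresh replicate 2 in make-up: genes named Rpl and Rps took 8.54% of its counts, against 4.27% in fresh replicate 2 and 3.78% to 4.18% in the vehicle libraries. The ribosomal RNA gene Rn45s took 0.592% to 0.691% of the vehicle libraries, against 1.59% of fresh replicate 1 and 0.728% of fresh replicate 2. Of 12 HSC markers, Ly6a (Sca-1) and Cd34 rose in culture, and the summed level of the list was 3177, 3042 and 2970 CPM in vehicle, against 2970 and 3407 CPM in fresh.

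In total, 250 of the 14124 genes passed the test of SelpKO vehicle against SelpKO fresh, that is 1.77%. Of these, 174 rose in culture (1.23% of genes tested) and 76 fell (0.538%). The test was edgeR's quasi-likelihood test with Benjamini-Hochberg adjustment over all genes tested, called at an adjusted p under 0.05, and fold changes are vehicle over fresh on the log2 scale, with their standard error (SE). For each of the 250 genes the vehicle and fresh libraries did not overlap in CPM, which was also true of 35.6% of all genes tested (15.3% with vehicle higher, 20.3% with vehicle lower). The change was over 2-fold for 228 of the 250 genes and over 4-fold for 94, while the median over all genes tested was -0.02 on the log2 scale. Over all genes tested, 47.5% of log2 fold changes were above 0. The shares over all genes (1.77% called, 1.23% higher, 0.538% lower and 47.5% above 0) are the background for the counts of each list below. For list counts at an unadjusted p under 0.05 in edgeR, the background is 1649 of the 14124 genes tested. With 2 fresh libraries the calls depended on single libraries. The count was 128 without vehicle replicate 1, 150 without vehicle replicate 2, 135 without vehicle replicate 3, 76 without fresh replicate 1 and 488 without fresh replicate 2, and 55 genes (40 higher, 15 lower) passed in all 5 of these fits. All 250 genes were among the 916 that DESeq2 called (7.02% of the genes it tested; 4.28% higher, 2.74% lower), and among the 554 called when a sparse SelpWT PSGL-1 library, which enters the shared estimate of spread, was left out (3.67%; 2.4% higher, 1.27% lower). limma voom called 208 of the 250, and its own 542 calls (3.84% of genes tested) held 180 higher (1.27%) and 362 lower (2.56%).

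**Figure D1:**
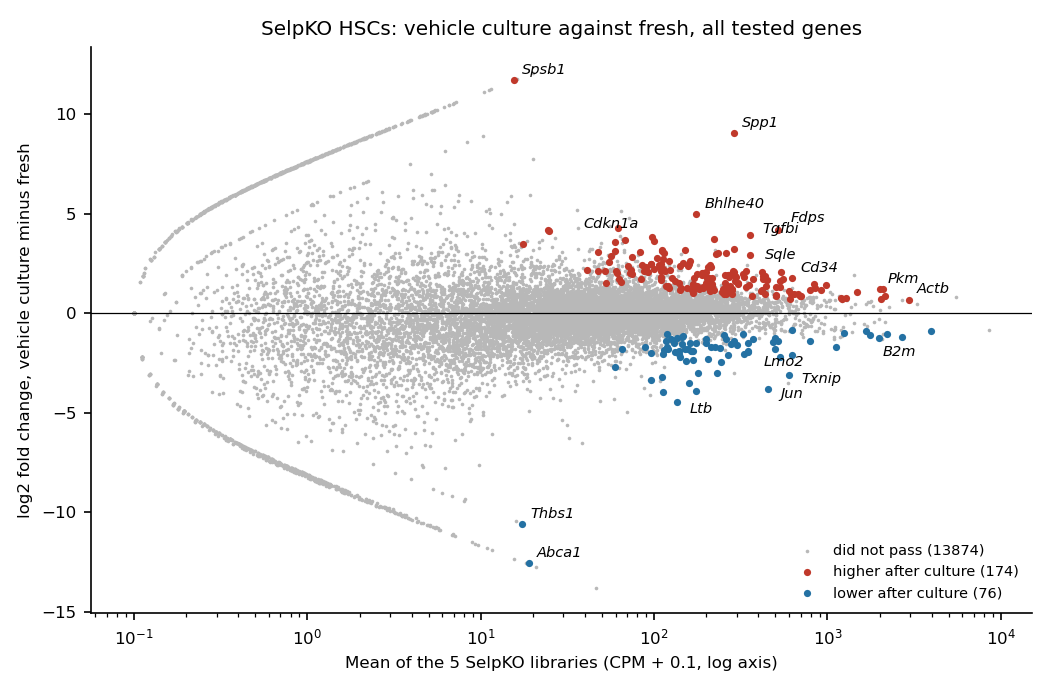
log2 fold change of each tested gene (vehicle culture minus fresh, SelpKO) against its mean level in the 5 SelpKO libraries (CPM + 0.1, log axis). Red points are the 174 genes that passed with vehicle higher, blue points the 76 that passed with vehicle lower, grey points did not pass; the curved grey arms are genes at 0 in one of the groups, whose fitted fold changes are no measure of size.

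The largest changes by the fitted fold included genes near silence in one group. Spp1, which encodes the secreted phosphoprotein osteopontin, was at 245, 1000 and 192 CPM in vehicle, against 0 and 1.87 CPM in fresh (adjusted p = 0.0117). Its call was lost without fresh replicate 1 (adjusted p = 0.144), and its log2 fold change of 9.07 became 8.08 there, 7.94 without vehicle replicate 2 and 15.93 without fresh replicate 2. Spsb1, a substrate-binding adaptor of ubiquitin ligases, was at 16, 40.1 and 21.1 CPM in the vehicle libraries and had no count in either fresh library (adjusted p = 0.046), so its level was at least 148.5-fold higher in vehicle, taking a floor of 3 counts per library. Abca1, the cholesterol export pump, had no count in any vehicle library, against 28.8 and 65.3 CPM in the fresh ones (adjusted p = 0.0372), at least 262.6-fold lower in vehicle with the same floor. Neither Spsb1 nor Abca1 passed once any 1 of the 5 libraries was left out (adjusted p up to 0.293 for Spsb1 and 0.123 for Abca1). Thbs1, the matrix and platelet protein thrombospondin 1, had 1 count in vehicle replicate 1 and 0 in the other vehicle libraries, against 40.3 and 45.6 CPM in the fresh ones (adjusted p = 0.0126), and did not pass without fresh replicate 1 or without any 1 vehicle library (adjusted p up to 0.0683). For each of these genes one group lay near silence, where a fitted fold change is no measure of size.

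Other genes with large rises had measured levels in both groups. Bhlhe40, a transcriptional repressor of the basic helix-loop-helix family, was at 228, 338 and 288 CPM in vehicle, against 0.228 and 19.2 CPM in fresh (log2 fold change 4.97 ± 1.04 SE, adjusted p = 0.0208). The fresh libraries differed widely from each other, and the log2 fold change was 3.98 without fresh replicate 1 and 10.23 without fresh replicate 2. The call was lost without vehicle replicate 2 (adjusted p = 0.0542) or 3 (adjusted p = 0.0526). Hes1, a repressor known as a Notch target, was at 35.6, 51.3 and 30.01 CPM in vehicle, against 2.28 and 1.99 CPM in fresh (log2 fold change 4.21 ± 0.91 SE, adjusted p = 0.0259). Lat2, a membrane adaptor of immune receptor signalling, was at 32.4, 46.9 and 39.9 CPM in vehicle, against 0.228 and 4.56 CPM in fresh (log2 fold change 4.15 ± 0.96 SE, adjusted p = 0.0391). Hes1 did not pass when any 1 library was left out (adjusted p up to 0.226). Lat2 passed only without fresh replicate 2, with a log2 fold change of 7.39 there and 3.21 without fresh replicate 1. Among the largest falls, Ltb, the cytokine lymphotoxin beta, was at 9.93, 25.9 and 7.57 CPM in vehicle, against 473 and 161 CPM in fresh (log2 fold change -4.46 ± 1.06 SE, adjusted p = 0.0443). Slc18a2, the vesicular monoamine transporter, was at 10.2, 13.4 and 24.6 CPM in vehicle, against 251 and 263 CPM in fresh (log2 fold change -3.97 ± 0.73 SE, adjusted p = 0.0103). Coq8a, a protein of coenzyme Q synthesis, was at 20.8, 23.2 and 33.8 CPM in vehicle, against 348 and 445 CPM in fresh (log2 fold change -3.89 ± 0.69 SE, adjusted p = 0.00913). As for every called gene, no vehicle library reached a fresh library for these 3 genes. Ltb passed only without fresh replicate 2 (log2 fold change -5.05); without fresh replicate 1 it was -3.39 with an adjusted p of 0.417, and without vehicle replicate 2 -5.19. Slc18a2 did not pass without vehicle replicates 1 or 2 or fresh replicate 1 (adjusted p up to 0.0588), nor Coq8a without vehicle replicate 1 (adjusted p = 0.0514). Gimap6, a GTPase of the immunity-associated GIMAP family, was at 38.6, 32.3 and 21.5 CPM in vehicle, against 391 and 313 CPM in fresh (log2 fold change -3.5 ± 0.38 SE, adjusted p = 0.00028) and passed without each library in turn. Tcp11l2 was at 10.1, 27.4 and 23.9 CPM in vehicle, against 189 and 232 CPM in fresh (log2 fold change -3.33 ± 0.65 SE, adjusted p = 0.0134). Rcn3, a calcium-binding protein of the endoplasmic reticulum, was at 21.9, 42.7 and 13.3 CPM in vehicle, against 344 and 130 CPM in fresh (log2 fold change -3.19 ± 0.58 SE, adjusted p = 0.0101). Tcp11l2 did not pass without vehicle replicates 1 or 3 or fresh replicate 1 (adjusted p up to 0.0759). Rcn3 did not pass without vehicle replicate 1 or fresh replicate 1, where its log2 fold change was -2.24.

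Cholesterol synthesis was the gene list with the highest share of calls. Of its 22 enzymes, all tested, 12 rose in vehicle culture and 0 fell, that is 54.5% of the list against 1.77% of all genes. The median log2 fold change of the list was 2.69, against -0.02 over all genes tested; 21 of 22 values were above 0, and in 20 of 22 the vehicle and fresh libraries did not overlap, with vehicle higher. The summed level of the 22 genes was 4819, 5991 and 4745 CPM in vehicle, against 975 and 929 CPM in fresh. Of the 12 calls, 11 passed without each library in turn, and the median stayed between 2.57 and 2.74. Cells make cholesterol from acetyl-CoA by way of mevalonate, farnesyl pyrophosphate and squalene, and the transcription factor SREBP2 drives the genes of this pathway when sterols are low.

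The calls covered the route from its first steps to its last. At its start, Hmgcs1, the synthase that makes HMG-CoA (chr13:119690351-119708260, GRCm38), was at 334, 472 and 241 CPM in vehicle, against 22.3 and 31.5 CPM in fresh (log2 fold change 3.74 ± 0.40 SE, adjusted p = 0.00028). Fdps, which makes farnesyl pyrophosphate (chr3:89093588-89101967), was at 798, 984 and 703 CPM in vehicle, against 34.2 and 60.5 CPM in fresh (log2 fold change 4.18 ± 0.31 SE, adjusted p = 9.3e-06). Sqle, the squalene epoxidase, was at 481, 645 and 519 CPM in vehicle, against 76.1 and 69.9 CPM in fresh (log2 fold change 2.94 ± 0.23 SE, adjusted p = 9.3e-06). The lowest vehicle library lay at least several-fold above the highest fresh library for each of these enzymes. Further along, Cyp51, the lanosterol demethylase, was at 412, 573 and 372 CPM in vehicle, against 63.5 and 32.6 CPM in fresh (log2 fold change 3.24 ± 0.36 SE, adjusted p = 0.00028). Without fresh replicate 1 the value for Cyp51 was 3.88. All 4 of these genes passed without each library in turn. Among the other enzymes that passed were Acat2, Idi1, Fdft1, Lss, Msmo1 and Dhcr7, with log2 fold changes between 1.97 and 3.7; Fdft1 did not pass without fresh replicate 2 (adjusted p = 0.0618). Without fresh replicate 1 the value was 2.92 for Idi1 and 3.91 for Msmo1, and without fresh replicate 2 it was 5.46 for Idi1, 3.78 for Acat2 and 2.6 for Dhcr7. The single member below 0 was Ggps1, a branch enzyme that makes geranylgeranyl pyrophosphate (log2 fold change -0.20, adjusted p = 1).

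The promoter of Hmgcs1 is shown because it was the only one of the called enzymes to hold the classical sterol element. The letters TCACNCCAC (N, any base) were sought on both strands in RefSeq promoters of GRCm38.p6, from 250 bases before to 50 after each start. They were found in 1 of the 7 called enzymes with a promoter entry, 1 of 17 members and 1.35% of 11119 tested genes. The stretch below, with the match in capitals, lies at chr13:119690189-119690247, + strand, and the match begins 137 bases before the start.
Hmgcs1: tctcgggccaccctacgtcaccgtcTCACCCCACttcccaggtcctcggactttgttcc

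Genes that control or complement sterol synthesis gave fewer calls: of 16 tested, 2 rose and 1 fell, with a median log2 fold change of 0.29, but 0.73 without fresh replicate 2. Srebf2, which encodes SREBP2, was at 552, 639 and 559 CPM in vehicle, against 167 and 289.6 CPM in fresh (log2 fold change 1.4 ± 0.27 SE, adjusted p = 0.0126). Insig1, the membrane protein that holds SREBP back when sterols are plentiful, was at 131, 189 and 129 CPM in vehicle, against 38.7 and 56.9 CPM in fresh (log2 fold change 1.69 ± 0.35 SE, adjusted p = 0.0213). Srebf2 did not pass without fresh replicate 1 (adjusted p = 0.213), and Insig1 did not pass without vehicle replicates 1 or 2 or fresh replicate 1 (adjusted p up to 0.268). The gene of this list that fell was Abca1, described above. In fatty acid synthesis, 2 of 14 genes rose and 0 fell, with a median log2 fold change of 1.43 and 13 of 14 values above 0. Fasn, the fatty acid synthase, was at 484, 651 and 621 CPM in vehicle, against 149 and 213 CPM in fresh (log2 fold change 1.74 ± 0.27 SE, adjusted p = 0.00293). Fads2, a desaturase gene, was at 494, 621 and 418 CPM in vehicle, against 96.8 and 229.5 CPM in fresh (log2 fold change 1.71 ± 0.32 SE, adjusted p = 0.0117). Both lost the call without fresh replicate 1 (adjusted p = 0.0663 for Fasn and 0.14 for Fads2), and the value of Fads2 was 2.39 without fresh replicate 2. The desaturase gene Fads1 was at 270, 384 and 358 CPM in vehicle, against 154 and 206 CPM in fresh (adjusted p = 0.102). Scd2, of another desaturase, was at 459.5, 540.2 and 632 CPM in vehicle, against 34.2 and 265 CPM in fresh (adjusted p = 0.106). Neither passed.

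Genes of the cell cycle formed the other large block of rises. Of 34 genes of DNA replication and S phase, 16 rose and 0 fell (47.1%), and of 32 genes of mitosis, 9 rose and 0 fell (28.1%). The median log2 fold change was 1.63 for S phase, with 33 of 34 values above 0, and 1.62 for mitosis, with 32 of 32 above 0. Summed levels of the S phase genes were 10540, 10180 and 10670 CPM in vehicle, against 3012 and 4690 CPM in fresh, and those of the mitosis genes 6248, 5300 and 6089 CPM in vehicle, against 1846 and 2033 CPM in fresh. The groups did not overlap in either sum. Leaving out fresh replicate 1 lowered the number of calls to 4 for S phase and 6 for mitosis, with medians of 1.32 for S phase and 1.62 for mitosis. Without fresh replicate 2 there were 16 calls for S phase, with a median of 1.88, and 9 for mitosis, with a median of 2.02.

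In S phase, Mcm2, a subunit of the replicative helicase, was at 634, 626 and 571 CPM in vehicle, against 115 and 232 CPM in fresh (log2 fold change 1.87 ± 0.28 SE, adjusted p = 0.00273). Pcna, the sliding clamp of DNA polymerases, was at 424, 437 and 338 CPM in vehicle, against 126 and 143 CPM in fresh (log2 fold change 1.61 ± 0.23 SE, adjusted p = 0.0017). Fen1, the nuclease that trims Okazaki fragments, was at 443, 447 and 501 CPM in vehicle, against 119.5 and 146 CPM in fresh (log2 fold change 1.84 ± 0.27 SE, adjusted p = 0.0019). Tyms, which makes thymidylate, was at 325, 245 and 229.7 CPM in vehicle, against 59.9 and 85 CPM in fresh (log2 fold change 1.92 ± 0.28 SE, adjusted p = 0.00195). All 4 passed without each library in turn, although Mcm2 and Tyms did so narrowly (adjusted p up to 0.0494 for Mcm2 and 0.0488 for Tyms). The vehicle libraries stood 2-fold or more above the higher fresh library for each of the 4. The single S phase gene below 0 was Chaf1b, a subunit of the chromatin assembly factor (206, 189 and 197 CPM in vehicle, 209 and 205 CPM in fresh, adjusted p = 1).

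In mitosis, Top2a, the topoisomerase that untangles sister chromatids, was at 566, 384 and 514 CPM in vehicle, against 103 and 127 CPM in fresh (log2 fold change 2.13 ± 0.26 SE, adjusted p = 0.000556). Mki67, whose protein Ki-67 coats mitotic chromosomes and marks cycling cells, was at 444, 453 and 352 CPM in vehicle, against 82.4 and 120.1 CPM in fresh (log2 fold change 2.08 ± 0.28 SE, adjusted p = 0.00112). Plk1, a kinase of mitotic entry, was at 165, 175 and 206 CPM in vehicle, against 20.7 and 39 CPM in fresh (log2 fold change 2.66 ± 0.38 SE, adjusted p = 0.0017). Aurkb, the kinase of the chromosomal passenger complex, was at 297, 279 and 288 CPM in vehicle, against 76.6 and 95.4 CPM in fresh (log2 fold change 1.78 ± 0.25 SE, adjusted p = 0.00139). These 4 passed without each library in turn. The other 5 calls were Aurka, Cdk1, Kif11, Tpx2 and Incenp, with log2 fold changes of 1.64 to 2.79. Aurka, Kif11, Tpx2 and Incenp did not pass without fresh replicate 1 (adjusted p of 0.052 to 0.164), and Cdk1 did not pass without vehicle replicate 1 (adjusted p = 0.0609) or fresh replicate 2 (adjusted p = 0.0788).

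Promoters of 4 of the called mitosis genes are shown because the members that moved together also shared short sequence runs. CCAAT, the box bound by NF-Y, and TTTGAA, the core of the cell cycle homology region, were sought on both strands in the same RefSeq windows. The letters CCAAT were in 22 of 27 members with an entry (81.5%), against 42.6% of 11119 tested genes, and TTTGAA in 20 of 27 (74.1%), against 14.6%. All 6 called members with an entry (Mki67, Top2a, Plk1, Aurka, Cdk1 and Kif11) held both. Capitals mark each match; ATTGG and TTCAAA are the same motifs read on the other strand, and the motifs do not overlap each other. In GRCm38.p6 the stretches lie at chr7:135716447-135716592, - strand for Mki67, chr7:122159396-122159484, + strand for Plk1, chr2:172370521-172370646, - strand for Aurka and chr19:37376312-37376393, + strand for Kif11. A match is a description of the letters and not of binding.
Mki67: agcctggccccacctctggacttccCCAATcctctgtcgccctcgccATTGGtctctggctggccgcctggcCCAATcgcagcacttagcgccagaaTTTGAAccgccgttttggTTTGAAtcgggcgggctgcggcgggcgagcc
Plk1: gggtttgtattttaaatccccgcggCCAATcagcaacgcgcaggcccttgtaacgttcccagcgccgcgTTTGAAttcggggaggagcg
Aurka: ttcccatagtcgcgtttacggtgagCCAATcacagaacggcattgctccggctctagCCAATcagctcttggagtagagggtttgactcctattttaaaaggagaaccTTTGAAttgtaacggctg
Kif11: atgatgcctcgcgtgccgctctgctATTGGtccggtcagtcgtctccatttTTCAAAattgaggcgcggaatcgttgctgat

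For S phase, TTTGGCGC or TTTCCCGC, letters bound by E2F factors, were in 4 of the 15 called genes with an entry (Mcm3, Mcm5, Mcm7 and Pold1) and 9 of 29 members (31%), against 3.44% of tested genes. The promoter of Mcm3, another subunit of the replicative helicase, holds both forms close to its start (chr1:20820263-20820318, - strand), and capitals mark them, the first being read on the other strand.
Mcm3: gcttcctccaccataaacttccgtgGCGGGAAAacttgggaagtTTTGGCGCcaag

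Regulators of G1 moved in both directions: of 20 tested (21 listed), 3 rose and 1 fell, with a median log2 fold change of 0.81. Cdk6, the kinase that moves HSCs out of rest, was at 445, 327 and 451 CPM in vehicle, against 126 and 165 CPM in fresh (log2 fold change 1.53 ± 0.28 SE, adjusted p = 0.00969). Its partner Ccnd3, cyclin D3, was at 810.4, 746 and 802 CPM in vehicle, against 409 and 419 CPM in fresh (log2 fold change 0.96 ± 0.16 SE, adjusted p = 0.0059), while Ccnd2, cyclin D2, fell to 302, 326 and 330 CPM in the vehicle libraries, against 719 and 813 CPM in the fresh ones (log2 fold change -1.23 ± 0.25 SE, adjusted p = 0.0191). Cdkn1a, a p53 target whose product p21 inhibits cyclin-dependent kinases, was at 103, 225 and 145 CPM in vehicle, against 11.5 and 14.2 CPM in fresh (log2 fold change 3.65 ± 0.50 SE, adjusted p = 0.00139). Cdkn1a and Ccnd3 passed without each library in turn. Cdk6 did not pass without fresh replicate 1 (adjusted p = 0.133), and Ccnd2 passed only without fresh replicate 2 (adjusted p up to 0.104 in the other fits). Cdkn1a was the single call among 18 p53 targets (median log2 fold change 0.45, but 0.28 without vehicle replicate 3 and 0.82 without fresh replicate 2). Others of that list did not pass: Bax, which opens the mitochondrial membrane in apoptosis, was at 213, 187 and 207 CPM in vehicle, against 119.9 and 100.2 CPM in fresh (adjusted p = 0.177). Gdf15, a secreted stress factor, was at 29.1, 133 and 14.5 CPM in vehicle, against 0.114 and 3.33 CPM in fresh (adjusted p = 0.319). Aen, an apoptosis nuclease, was at 64.7, 75.3 and 68.2 CPM in vehicle, against 7.06 and 48.1 CPM in fresh (adjusted p = 0.432). Of 16 regulators of apoptosis 0 passed in edgeR (2 at an unadjusted p under 0.05, 0 called by DESeq2 and 0 by limma voom), with a median of 0.04, but -0.15 without vehicle replicate 2 and 0.27 without fresh replicate 2. Bcl2a1b, a survival gene of the BCL2 family with close copies, was at 0, 0 and 0 CPM in vehicle, against 0 and 0.76 CPM in fresh (adjusted p = 0.516). Bcl2 was at 122, 113 and 144 CPM in vehicle, against 33.5 and 108 CPM in fresh (adjusted p = 0.359). Mcl1 was at 231, 209.7 and 232 CPM in vehicle, against 275 and 341 CPM in fresh (adjusted p = 0.555). These are 2 survival factors of the same family.

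**Figure D2:**
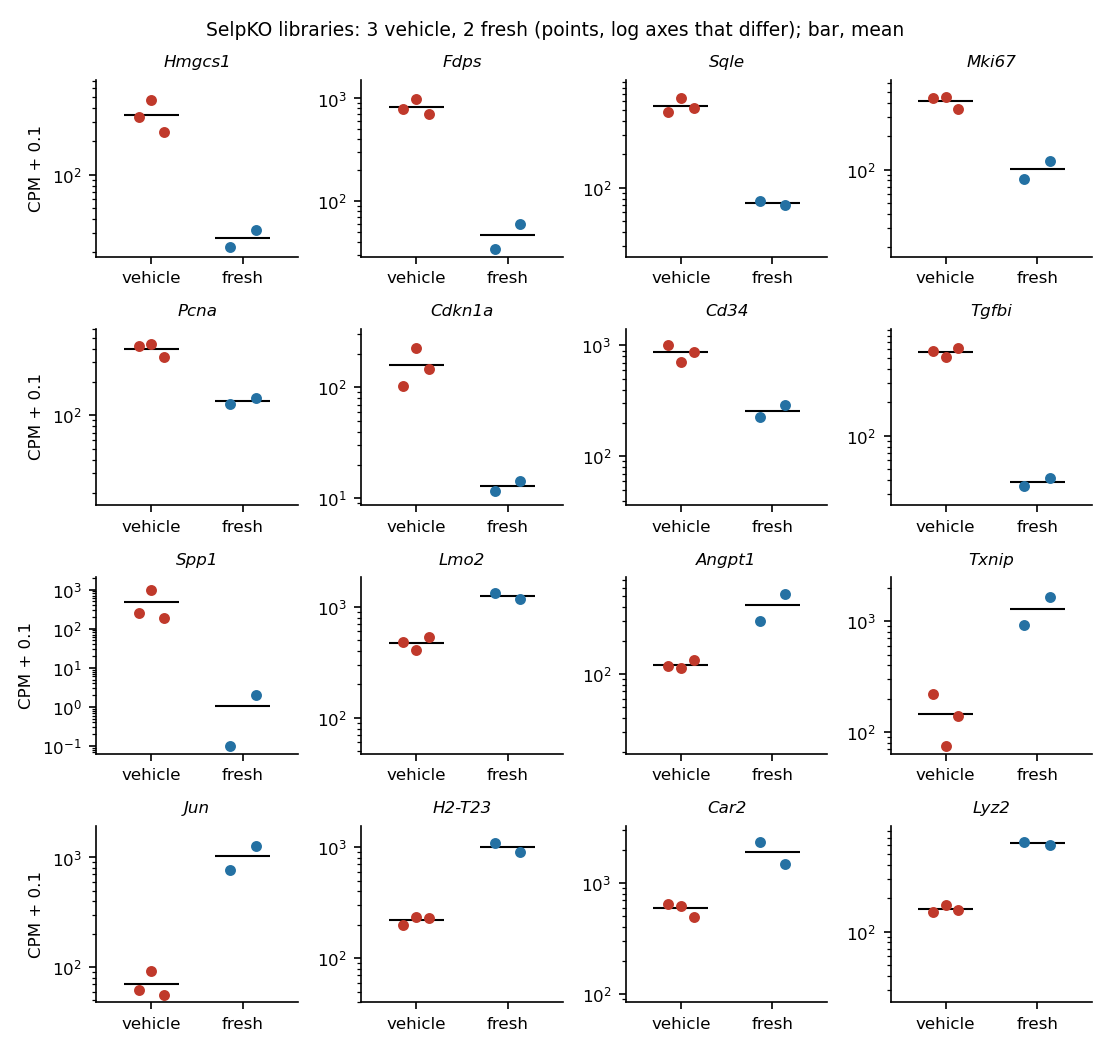
CPM + 0.1 of 16 genes in each SelpKO library, 3 vehicle (red) and 2 fresh (blue), on log axes whose range differs between genes; the bar is the group mean. In every panel the vehicle and fresh points do not overlap, as for every called gene: vehicle is higher for Hmgcs1, Fdps, Sqle, Mki67, Pcna, Cdkn1a, Cd34, Tgfbi and Spp1, and lower for Lmo2, Angpt1, Txnip, Jun, H2-T23, Car2 and Lyz2.

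Genes tied to stem cell identity and rest lay mostly lower in culture. Among 12 HSC markers, Cd34 rose (1011, 706 and 881 CPM in vehicle, against 225 and 290.1 CPM in fresh; log2 fold change 1.79 ± 0.22 SE, adjusted p = 0.000547), as did Ly6a, which encodes the sorting antigen Sca-1 (864, 738 and 732 CPM in vehicle, against 234 and 133 CPM in fresh; log2 fold change 2.1 ± 0.27 SE, adjusted p = 0.00103). Cd34 marks mouse progenitors more than long-term HSCs. Both passed without each library in turn, while the other 10 markers had log2 fold changes below 0 and did not pass, for a list median of -0.91. Among the 10 was Cd48, at a mean of 1.17 CPM in vehicle and 6.51 CPM in fresh. Mouse HSCs lack this marker, so its lower value does not count as a loss of identity. Procr, the protein C receptor EPCR, was at 68.8, 49.4 and 34.7 CPM in vehicle, against 164 and 131 CPM in fresh (adjusted p = 0.289). Of 25 genes of quiescence, 2 fell and 0 rose, that is 8%, against 1.77% of all genes. The median log2 fold change of the list was -1.21, with 24 of 25 values below 0. The summed level of the 25 genes was 786, 759 and 639 CPM in vehicle, against 2441 and 3364 CPM in fresh, and the median was -1.52 without fresh replicate 1 and -0.61 without fresh replicate 2. In bulk RNA, fewer cells of a type and less RNA per cell cannot be told apart.

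Txnip, an inhibitor of thioredoxin and of glucose uptake that is abundant in resting HSCs, was at 221, 74.3 and 138 CPM in vehicle, against 924 and 1641 CPM in fresh (log2 fold change -3.1 ± 0.44 SE, adjusted p = 0.00171). Tsc22d3, the glucocorticoid-induced leucine zipper, was at 53.8, 63.9 and 25.7 CPM in vehicle, against 443 and 314 CPM in fresh (log2 fold change -2.97 ± 0.45 SE, adjusted p = 0.0025). Both fell and passed without each library in turn. Cdkn1c, which encodes p57, the inhibitor most tied to HSC rest, was at 20.2, 24.1 and 12.2 CPM in vehicle, against 152 and 107 CPM in fresh and missed the threshold (log2 fold change -2.76, adjusted p = 0.0513), as did Mllt3, a regulator of HSC maintenance, at 49.7, 38.1 and 50.02 CPM in vehicle, against 151 and 223 CPM in fresh (adjusted p = 0.0792). Angpt1, the ligand of the Tie2 receptor, fell to 118, 113 and 133 CPM in the vehicle libraries, against 302 and 529.9 CPM in the fresh ones (log2 fold change -1.73 ± 0.31 SE, adjusted p = 0.00905), and did not pass without fresh replicate 2 (adjusted p = 0.0563). It was the single call among 15 tested genes of the angiopoietin and endothelial-type list (18 listed), in which 14 of 15 values were below 0 and the median was -0.90, but -0.53 without fresh replicate 2. Tie1 was at 174, 215 and 217 CPM in vehicle, against 402 and 364 CPM in fresh (adjusted p = 0.182). Vwf, von Willebrand factor, was at 109.5, 128 and 208 CPM in vehicle, against 247 and 375 CPM in fresh (adjusted p = 0.263).

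Of 20 core HSC transcription factors, 1 fell and 0 rose, with a median log2 fold change of -0.60, 19 of 20 values below 0 and a summed level of 3000, 2925 and 3475 CPM in vehicle, against 4887 and 5502 CPM in fresh. Lmo2, the bridging factor of the complex built on TAL1 and GATA factors (chr2:103957903-103981878), was at 483, 406 and 538 CPM in vehicle, against 1338 and 1181 CPM in fresh (log2 fold change -1.38 ± 0.20 SE, adjusted p = 0.0017) and passed without each library in turn. Zfpm1, the GATA cofactor FOG1 (129.6, 171 and 176 CPM in vehicle, against 289 and 386 CPM in fresh; adjusted p = 0.0629), Gata2 (303, 307 and 295 CPM in vehicle, against 544 and 554 CPM in fresh; adjusted p = 0.107) and Myb (242, 170.1 and 253 CPM in vehicle, against 309 and 406 CPM in fresh; adjusted p = 0.324) had lower values in all vehicle libraries than in either fresh library but did not pass. Among 15 tested Hox genes and partners (16 listed), 0 passed in edgeR (2 at an unadjusted p under 0.05, 0 called by DESeq2 and 0 by limma voom), and 14 were below 0 (median -0.95). Meis1, a Hox cofactor, was at 173, 219.5 and 293 CPM in vehicle, against 292 and 472 CPM in fresh (adjusted p = 0.325). Hoxa9 was at 44.5, 61.5 and 54.7 CPM in vehicle, against 111 and 99.99 CPM in fresh (adjusted p = 0.468). Hoxb6 had 0.285 and 7.25 CPM in the fresh libraries and 0 in 2 of the 3 vehicle libraries, and did not pass either (adjusted p = 0.607).

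Markers of maturing blood cells lay higher in the fresh libraries and moved with the lists of rest and identity. Erythroid markers summed to 864, 837 and 783 CPM in vehicle, against 2635 and 1764 CPM in fresh, and 8 of 20 had no count in any of the 5 libraries. Granulocyte and monocyte markers summed to 767, 684 and 649.6 CPM in vehicle, against 1864 and 1807 CPM in fresh. Megakaryocyte and platelet markers summed to 2480, 2857 and 3102 CPM in vehicle, against 3746 and 4701 CPM in fresh, and mast cell and basophil markers to 825, 759 and 759 CPM in vehicle, against 1557 and 1292 CPM in fresh, with 9 of 20 mast cell and basophil genes at 0 throughout. Of 14 erythroid genes tested, 1 rose and 1 fell (median log2 fold change -0.68, but 0 without fresh replicate 2). Car2, carbonic anhydrase 2, fell (653, 622 and 495 CPM in vehicle, against 2328 and 1473 CPM in fresh; log2 fold change -1.68 ± 0.23 SE, adjusted p = 0.00151), and Tfrc, the transferrin receptor, rose. Car1, carbonic anhydrase 1, was at 0, 0 and 0 CPM in vehicle, against 0 and 8.19 CPM in fresh (adjusted p = 0.344). Of 22 granulocyte and monocyte genes tested (24 listed), 2 fell (median -2.15, but -3.28 without vehicle replicate 2 and 0 without fresh replicate 2): Lyz2, lysozyme 2, was at 149.8, 174 and 158 CPM in vehicle, against 643 and 610.3 CPM in fresh (log2 fold change -1.94 ± 0.23 SE, adjusted p = 0.000512). Prtn3, proteinase 3, was at 97.3, 43.8 and 43.5 CPM in vehicle, against 570.1 and 405 CPM in fresh (log2 fold change -2.97 ± 0.56 SE, adjusted p = 0.0118). The reads of Lyz2 may be shared with its close copy Lyz1. Car2 and Lyz2 passed without each library in turn, and Prtn3 did not pass without vehicle replicates 2 or 3 or fresh replicate 1 (adjusted p up to 0.104). S100a9, a neutrophil calcium-binding protein, was at 0, 0 and 0 CPM in vehicle, against 9.17 and 0.643 CPM in fresh (adjusted p = 0.251). Mpo, myeloperoxidase, had no count in the vehicle libraries and in fresh replicate 1 and 231 CPM in fresh replicate 2 (adjusted p = 0.233). Of 23 megakaryocyte genes tested, 2 fell, Thbs1 and Nfe2 (median -0.52, but -0.80 without vehicle replicate 2). Nfe2, a transcription factor of platelet formation, was at 297, 343 and 300.2 CPM in vehicle, against 812 and 834 CPM in fresh (log2 fold change -1.36 ± 0.25 SE, adjusted p = 0.01) and did not pass without vehicle replicate 1 or fresh replicate 1 (adjusted p up to 0.0711). Mmrn1, multimerin 1, was at 145, 126 and 190.2 CPM in vehicle, against 219.9 and 558 CPM in fresh (adjusted p = 0.105). Of 12 mast cell genes tested 0 passed in edgeR (3 at an unadjusted p under 0.05, 3 called by DESeq2 and 2 by limma voom; median -0.85). Hdc, the enzyme that makes histamine, was at 0, 0 and 0 CPM in vehicle, against 0 and 2.11 CPM in fresh (adjusted p = 0.538). Srgn, the granule proteoglycan serglycin, was at 455, 363 and 408 CPM in vehicle, against 819 and 639.6 CPM in fresh (adjusted p = 0.133), and the cytokine gene Il4 had no count in vehicle, against 27.2 and 6.67 CPM in fresh (adjusted p = 0.114). Whether a different share of such cells entered the fresh and cultured libraries was not tested.

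Markers of other cell types were low. B and plasma cell markers summed to 38.1, 38.4 and 14.6 CPM in vehicle, against 67.4 and 48.7 CPM in fresh (6 of 10 at 0 throughout), T and NK cell markers to 38.6, 32.4 and 41.3 CPM in vehicle, against 58.1 and 53.7 CPM in fresh (8 of 14 at 0), and endothelial and stromal markers to 154, 161 and 154 CPM in vehicle, against 229.7 and 245 CPM in fresh (6 of 16 at 0). Pecam1, Emcn and Kdr of the endothelial and stromal list were also members of the endothelial-type HSC list. Their means were 62.2, 46.7 and 30.3 CPM in fresh, so that sum does not measure unrelated cells alone. The median log2 fold change was -4.48 for B and plasma cells, -0.22 for T and NK cells and 0.19 for endothelial and stromal cells. With genes at 0 in one group set to their bound it was -2.21 for B and plasma cells, 0.29 for T and NK cells and -0.01 for endothelial and stromal cells. Without fresh replicate 2 it was -0.79 for B and plasma cells. For T and NK cells it was 0.24 without fresh replicate 1 and 0.29 without fresh replicate 2, and -0.52 to -0.08 without each vehicle library in turn. For endothelial and stromal cells it lay between -0.15 and 0 when each library was left out in turn. No gene of these 3 lists passed in edgeR, of 4, 6 and 10 tested. For B and plasma cells the counts were 2 at an unadjusted p under 0.05, 0 called by DESeq2 and 1 by limma voom; for T and NK cells 1 at an unadjusted p under 0.05, 2 called by DESeq2 and 1 by limma voom; for endothelial and stromal cells 0 at an unadjusted p under 0.05, 0 called by DESeq2 and 0 by limma voom.

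Cytokine signalling gave scattered calls. Of 26 tested cytokine receptors (28 listed), 1 rose and 0 fell (median -0.32, but -0.20 without vehicle replicate 1 and -0.11 without fresh replicate 1): Csf2rb2, the mouse receptor subunit for IL-3, was at 80.7, 79.2 and 139 CPM in vehicle, against 4.44 and 6.14 CPM in fresh (log2 fold change 4.27 ± 0.85 SE, adjusted p = 0.0148). It did not pass without vehicle replicate 3 or either fresh library (adjusted p up to 0.207), and its reads may be shared with its near-identical neighbour Csf2rb. The receptors for the cytokines of the medium did not pass: Kit was at 289.7, 369 and 361 CPM in vehicle, against 381 and 735 CPM in fresh (adjusted p = 0.434). Flt3 was at 16.6, 44.7 and 28.7 CPM in vehicle, against 28.8 and 52.7 CPM in fresh (adjusted p = 0.949). Il11ra1 was at 154, 112 and 143 CPM in vehicle, against 225 and 132 CPM in fresh (adjusted p = 0.739). These 3 were chosen after their values were seen. Csf2ra was at 17.6, 25.7 and 29.2 CPM in vehicle, against 62 and 77.7 CPM in fresh (adjusted p = 0.305). Epor was at 5.8, 0 and 6.52 CPM in vehicle, against 83.9 and 29.2 CPM in fresh (adjusted p = 0.233). Neither passed. Among 26 feedback genes of JAK-STAT and RAS signalling, 1 rose and 1 fell, and the median was -0.41, but -0.27 without vehicle replicate 1, -0.20 without vehicle replicate 2 and 0.42 without fresh replicate 2. Vehicle lay above fresh without overlap in 6 of the 26 and below in 10, against 15.3% and 20.3% of all genes tested. DESeq2 called 3 higher and 5 lower, and limma voom 3 higher and 6 lower. Cish and Socs2, chosen after their values were seen, did not pass. Their means were 20.3 and 1.54 CPM in vehicle, against 179.5 and 76.4 CPM in fresh. Socs3, the inhibitor induced by gp130 cytokines such as IL-11, was at 158, 124 and 219 CPM in vehicle, against 48.1 and 27.5 CPM in fresh (log2 fold change 2.15 ± 0.45 SE, adjusted p = 0.0213). Dusp2, a phosphatase of MAP kinases, was at 108, 130 and 103 CPM in vehicle, against 489 and 236 CPM in fresh (log2 fold change -1.67 ± 0.35 SE, adjusted p = 0.0213). Socs3 passed only without vehicle replicate 2 (adjusted p up to 0.112 in the other fits). Dusp2 passed only without fresh replicate 2, and its log2 fold change without fresh replicate 1 was -0.97 (adjusted p = 0.502). Bcl3 was at 174, 154 and 191 CPM in vehicle, against 26.7 and 76.1 CPM in fresh (adjusted p = 0.0562), and Etv4, an ETS factor induced by RAS signalling, at 7.67, 12.2 and 5.91 CPM in vehicle with no count in fresh (adjusted p = 0.0837).

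Immediate early genes, which respond within minutes to cytokines and to handling, gave 2 falls and 0 rises among 19 tested (20 listed), with a median of -0.14, but -0.26 without vehicle replicate 1 and 0.07 without vehicle replicate 3. Jun, a subunit of the AP-1 factor (chr4:95049036-95052222), was at 61.6, 93.2 and 56 CPM in vehicle, against 769.8 and 1275 CPM in fresh (log2 fold change -3.82 ± 0.62 SE, adjusted p = 0.00482). Ier2 was at 144, 169 and 119 CPM in vehicle, against 632 and 581 CPM in fresh (log2 fold change -2.05 ± 0.28 SE, adjusted p = 0.00139). Both passed without each library in turn. The fresh libraries were several-fold above each vehicle library for both genes. Fos was at 28.5, 0 and 14 CPM in vehicle, against 174 and 219 CPM in fresh (adjusted p = 0.251), and Fosb had no count in vehicle, against 6.26 and 11.3 CPM in fresh (adjusted p = 0.274); neither passed. Junb, a close relative chosen after its values were seen, was at 293, 340.3 and 168 CPM in vehicle, against 245 and 255 CPM in fresh (adjusted p = 0.992).

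Secreted and matrix genes rose in part: 5 of 27 tested (28 listed) rose and 0 fell, with a median log2 fold change of 1.39, and 2 of 20 tested genes of the TGF-beta pathway and its targets (22 listed) rose and 0 fell (median 0.89). The summed level of the secreted list was 4673, 7812 and 4543 CPM in vehicle, against 2266 and 2075 CPM in fresh, highest in vehicle replicate 2, and its median was 0.73 without that library and 0.91 without fresh replicate 2. Without fresh replicate 1 the median of the TGF-beta list was 0.53. Tgfbi, a matrix protein named for its induction by TGF-beta (chr13:56609586-56639359), belonged to both lists and was at 575, 509 and 616 CPM in vehicle, against 35 and 41.8 CPM in fresh (log2 fold change 3.92 ± 0.30 SE, adjusted p = 9.3e-06). S100a4, a calcium-binding protein of motile cells, was at 168, 224 and 121 CPM in vehicle, against 17.2 and 22.9 CPM in fresh (log2 fold change 3.13 ± 0.41 SE, adjusted p = 0.00104). Both passed without each library in turn, and, as for every called gene, the groups did not overlap. Vim, vimentin, was at 434, 518 and 376 CPM in vehicle, against 242 and 257 CPM in fresh (log2 fold change 0.86 ± 0.20 SE, adjusted p = 0.0373). Pmepa1, a feedback inhibitor of TGF-beta signalling, was at 77.2, 132 and 67.7 CPM in vehicle, against 15.7 and 4.91 CPM in fresh (log2 fold change 3.15 ± 0.71 SE, adjusted p = 0.0323). Vim passed only without vehicle replicate 3 (adjusted p up to 0.226). Pmepa1 did not pass in any of the 5 fits that left out 1 library (adjusted p up to 0.128), with values of 4.32 without fresh replicate 1 and 2.54 without fresh replicate 2. The fifth call of the secreted list was Col4a1, a basement membrane collagen, at 138, 202 and 228 CPM in vehicle, against 69.2 and 63.3 CPM in fresh (log2 fold change 1.54 ± 0.36 SE, adjusted p = 0.0441), which passed only without vehicle replicate 1 (adjusted p up to 0.231). Id2 was at 60.9, 21.5 and 57.2 CPM in vehicle, against 11.7 and 11.9 CPM in fresh (adjusted p = 0.199). Id3 was at 22.7, 34.9 and 15.9 CPM in vehicle, against 0 and 0.877 CPM in fresh (adjusted p = 0.33). Neither passed.

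Antigen presentation genes lay lower in culture. Of 21 tested (22 listed), 3 fell and 0 rose, and 19 of 21 values were below 0. The summed levels were 5247, 5200 and 5774 CPM in vehicle, against 11320 and 9927 CPM in fresh. The median log2 fold change was -1.05, but -0.65 without fresh replicate 1. The calls were all parts of class I molecules. H2-T23, a non-classical class I chain (Qa-1), was at 197, 233 and 229 CPM in vehicle, against 1098 and 906 CPM in fresh (log2 fold change -2.17 ± 0.30 SE, adjusted p = 0.00139). B2m, the shared light chain, was at 1132, 1128 and 1339 CPM in vehicle, against 2784 and 2453 CPM in fresh (log2 fold change -1.1 ± 0.20 SE, adjusted p = 0.00965). H2-K1, a classical heavy chain, was at 1595, 1458 and 1572 CPM in vehicle, against 3276 and 3060 CPM in fresh (log2 fold change -1.01 ± 0.23 SE, adjusted p = 0.0391). As for every called gene, no vehicle library reached a fresh library for these 3. H2-T23 passed without each library in turn, B2m did not pass without fresh replicate 1 (adjusted p = 0.102), and H2-K1 passed only without fresh replicate 2 (adjusted p up to 0.273). H2-D1, at 495, 486 and 511 CPM in vehicle, against 1141 and 944 CPM in fresh, did not pass (adjusted p = 0.126). Class I heavy chains are near-identical to each other, so reads may be assigned unevenly among them. Among 30 interferon-stimulated genes, 0 passed in edgeR (8 at an unadjusted p under 0.05, 3 called by DESeq2 and 3 by limma voom), while 29 of 30 values were below 0 (median -1.25) and in 19 of 30 all vehicle libraries lay below both fresh libraries, against 20.3% of all genes tested; the summed level was 2641, 2181 and 2299 CPM in vehicle, against 5244 and 3488 CPM in fresh. Examples were Ifi27 (61.5, 66.2 and 45.4 CPM in vehicle, against 248 and 119 CPM in fresh; adjusted p = 0.117), Irf9 (28.6, 33 and 52.9 CPM in vehicle, against 88 and 111 CPM in fresh; adjusted p = 0.22) and Irgm1 (65.6, 91.7 and 33.6 CPM in vehicle, against 169 and 125 CPM in fresh; adjusted p = 0.243). Ifitm1, at 1029, 673 and 841 CPM in vehicle, against 2053 and 914 CPM in fresh (adjusted p = 0.307), overlapped between the groups. The genes that DESeq2 called were lower in vehicle.

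**Figure D3:**
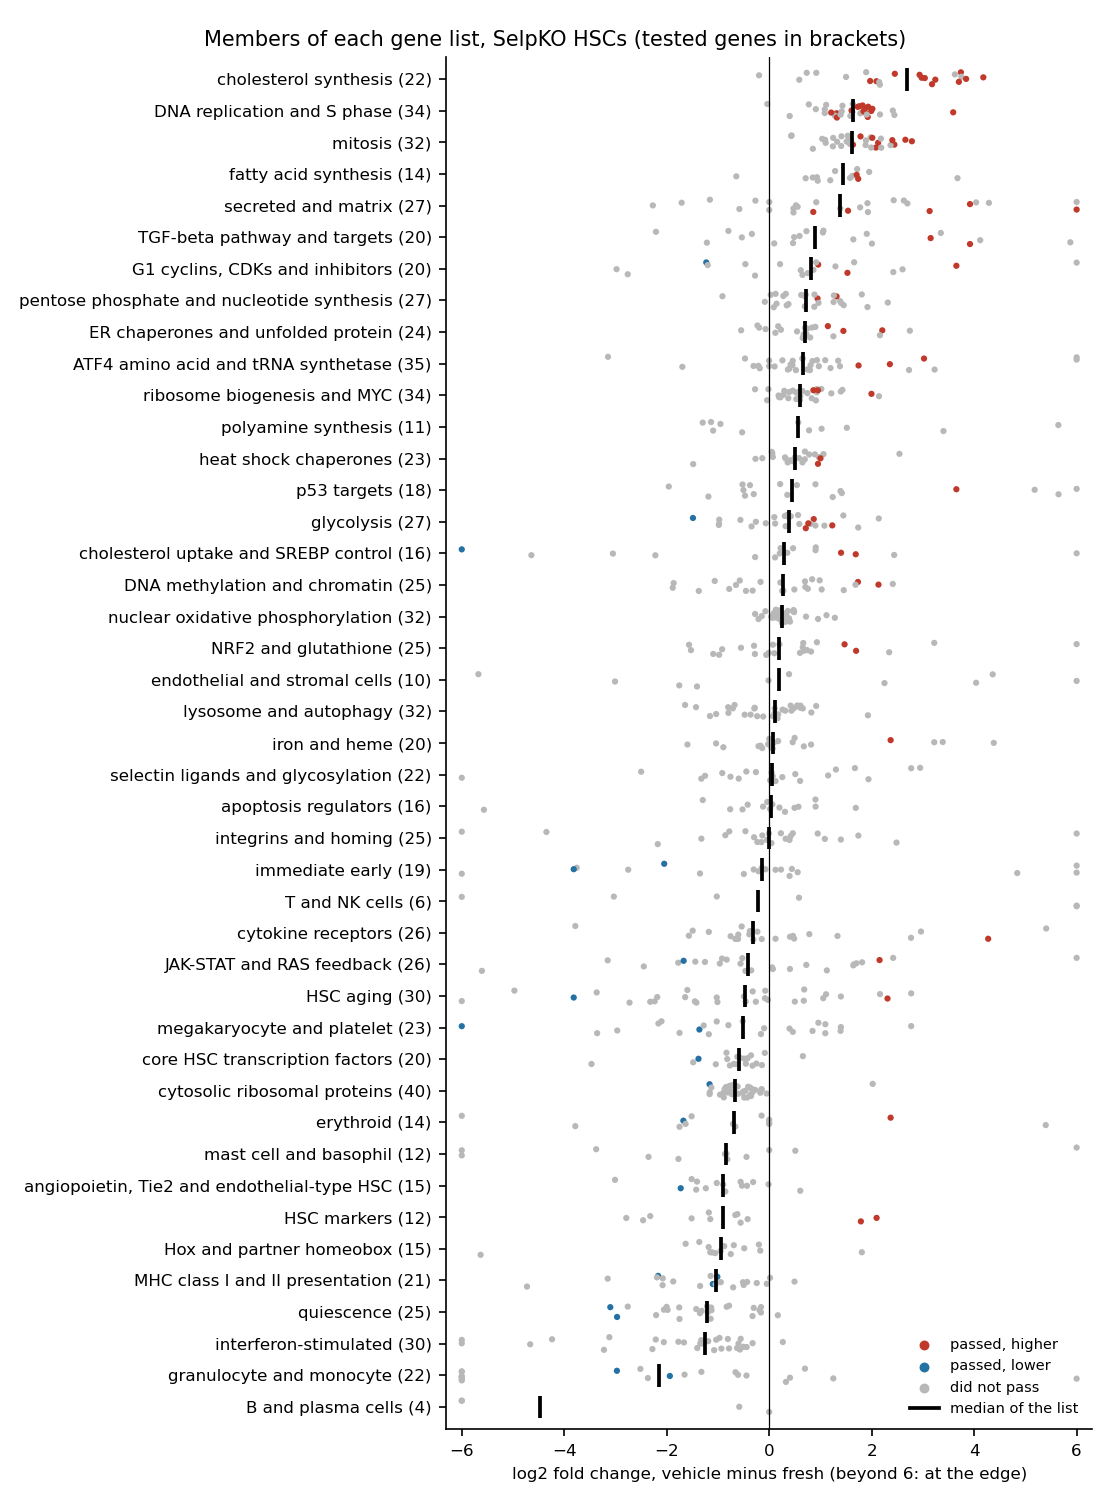
log2 fold change (vehicle minus fresh, SelpKO) of each tested member of all 43 gene lists (number tested in brackets), ordered by the median of the list (black bar); red and blue points passed the test with vehicle higher or lower, grey points did not, and values beyond 6 are drawn at the edge. Cholesterol synthesis, S phase and mitosis lie at the top with medians of 2.69, 1.63 and 1.62; among lists with at least 20 tested genes, granulocyte and monocyte markers, interferon-stimulated genes, quiescence and MHC presentation lie lowest with medians of -2.15, -1.25, -1.21 and -1.05.

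Genes of protein synthesis and folding rose in small numbers. Of 35 tested genes of amino acid supply and tRNA charging (37 listed), many of them targets of the stress factor ATF4, 3 rose and 0 fell (median 0.66, but 1.03 without fresh replicate 2). In this list 27 values were above 0 and 7 below. Trib3 and Ddit3, chosen after their values were seen, were below 0 and did not pass. Their means were 5.59 and 17.2 CPM in vehicle, against 50.1 and 56 CPM in fresh. Aars, the alanyl-tRNA synthetase, was at 291, 288 and 357 CPM in vehicle, against 59.5 and 65.4 CPM in fresh (log2 fold change 2.36 ± 0.29 SE, adjusted p = 0.000556). Vldlr, a lipoprotein receptor, was at 415, 300.1 and 478 CPM in vehicle, against 16.3 and 87.3 CPM in fresh (log2 fold change 3.02 ± 0.51 SE, adjusted p = 0.00603). Slc7a1, a cationic amino acid carrier, was at 87.5, 77.7 and 93.4 CPM in vehicle, against 21 and 32.2 CPM in fresh (log2 fold change 1.74 ± 0.35 SE, adjusted p = 0.0141). Aars and Vldlr passed without each library in turn, with Vldlr at 2.28 without fresh replicate 1 and 4.6 without fresh replicate 2, and its fresh levels differed from each other. Slc7a1 did not pass without vehicle replicates 1 or 3 or fresh replicate 1 (adjusted p up to 0.213), and Mthfd2, a mitochondrial folate enzyme at 70.1, 43.1 and 78.3 CPM in vehicle, against 10.9 and 8.6 CPM in fresh, missed the threshold (adjusted p = 0.0539). The letters TGATGNAAN, the element bound by ATF4 with its C/EBP partners, were on either strand of the promoter in 12 of 28 members with an entry (42.9%), against 2.77% of tested genes. Aars and Vldlr were the 2 of the 3 called genes that held it. The match of Vldlr, in capitals and read on the other strand, begins 201 bases before its start (chr19:27216794-27216852, + strand).
Vldlr: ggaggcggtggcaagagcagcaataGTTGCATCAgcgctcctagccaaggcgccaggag

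Of 24 chaperones and factors of the endoplasmic reticulum, 3 rose and 0 fell (median 0.70): Dnajb11 (203, 280 and 185 CPM in vehicle, against 85 and 81.3 CPM in fresh; log2 fold change 1.45 ± 0.26 SE, adjusted p = 0.00969), Sdf2l1 (210, 156 and 169.8 CPM in vehicle, against 46.5 and 31.6 CPM in fresh; log2 fold change 2.21 ± 0.47 SE, adjusted p = 0.023) and Ssr1, of the translocon (274, 329 and 425 CPM in vehicle, against 120.2 and 200.3 CPM in fresh; log2 fold change 1.15 ± 0.27 SE, adjusted p = 0.0399). Pdia6, a disulfide isomerase, was at 719, 645 and 705 CPM in vehicle, against 443 and 362 CPM in fresh and did not pass (adjusted p = 0.0686). Of 23 heat shock and chaperonin genes, 2 rose and 0 fell (median 0.50): Hspd1, the mitochondrial chaperonin HSP60 (542, 503 and 579 CPM in vehicle, against 260.2 and 293 CPM in fresh; log2 fold change 1.001 ± 0.19 SE, adjusted p = 0.012), and Tcp1, a subunit of the cytosolic chaperonin (328, 333 and 377 CPM in vehicle, against 139 and 231 CPM in fresh; log2 fold change 0.95 ± 0.21 SE, adjusted p = 0.0328). Without fresh replicate 1 none of these 5 calls held (adjusted p of 0.0747 to 0.441); Dnajb11 passed in the other 4 fits that left out a library, Hspd1 in 3, Ssr1 in 2, and Sdf2l1 and Tcp1 in 1 each. Stip1 was at 395, 298 and 402 CPM in vehicle, against 168 and 238 CPM in fresh (adjusted p = 0.0539). Hsp90aa1 was at 1270, 1071 and 1258 CPM in vehicle, against 756 and 756 CPM in fresh (adjusted p = 0.118). Neither passed.

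Of 34 genes of ribosome biogenesis and MYC, 3 rose and 0 fell, with a median log2 fold change of 0.59 and 31 of 34 values above 0. Rrp12, a factor of ribosome export, was at 93.7, 88.8 and 134 CPM in vehicle, against 27.7 and 26.3 CPM in fresh (log2 fold change 1.996 ± 0.44 SE, adjusted p = 0.0295). Eif4a1, the helicase of translation initiation, was at 956, 732 and 879 CPM in vehicle, against 442 and 522 CPM in fresh (log2 fold change 0.86 ± 0.19 SE, adjusted p = 0.032). Eif3b, a scaffold of the initiation factor eIF3, was at 853, 792 and 842 CPM in vehicle, against 289.8 and 599.9 CPM in fresh (log2 fold change 0.95 ± 0.22 SE, adjusted p = 0.0371). Rrp12 passed in none of the fits that left out 1 library, and Eif4a1 and Eif3b in 1 of 5 each (adjusted p up to 0.199 for Rrp12, 0.248 for Eif4a1 and 0.364 for Eif3b). Rrp1b, at 118, 126 and 178 CPM in vehicle, against 49 and 76.3 CPM in fresh, did not pass (adjusted p = 0.0927). Myc itself, chosen after its values were seen, was at 470, 551 and 521 CPM in vehicle, against 743 and 515 CPM in fresh (adjusted p = 0.833). The letters CACGTG, the E-box bound by MYC, were in 8 of 28 promoters of this list (28.6%), against 11.6% of tested genes, and in 1 of 2 called genes with an entry, Eif4a1.

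The 40 cytosolic ribosomal protein genes depended on which fresh library was used. Their summed level was 27960, 25140 and 25680 CPM in vehicle, against 56500 and 28910 CPM in fresh, so fresh replicate 1 stood apart and fresh replicate 2 lay close to the vehicle libraries. With both, 1 gene fell and 0 rose, and the median was -0.66; without fresh replicate 1 the median was 0.09 with 0 calls, and without fresh replicate 2 it was -1.04 with 20 calls, all lower. Rpl13, the one call, was at 1820, 1760 and 1795 CPM in vehicle, against 5374 and 2680 CPM in fresh (log2 fold change -1.16 ± 0.25 SE, adjusted p = 0.0253), and passed only without fresh replicate 2; its value without fresh replicate 1 was -0.49 (adjusted p = 0.56). Rpl3 (795, 731 and 929 CPM in vehicle, against 1616 and 1372 CPM in fresh; adjusted p = 0.063), Rpl32 (829.7, 777 and 769.5 CPM in vehicle, against 2495 and 1050 CPM in fresh; adjusted p = 0.0686) and Rps14 (769, 712 and 696 CPM in vehicle, against 2224 and 1024 CPM in fresh; adjusted p = 0.0735) were also highest in fresh replicate 1 and did not pass. Ribosomal protein genes have many processed pseudogenes that can share their reads.

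In carbon metabolism, 4 of 27 genes of glycolysis rose and 1 fell (median 0.38, but 0.65 without fresh replicate 2), with a summed level of 13690, 14310 and 14220 CPM in vehicle, against 8742 and 9427 CPM in fresh. Pkm, the pyruvate kinase, was at 2497, 2702 and 2526 CPM in vehicle, against 959 and 1299 CPM in fresh (log2 fold change 1.23 ± 0.15 SE, adjusted p = 0.000512) and passed without each library in turn. Gapdh was at 2611, 2366 and 2815 CPM in vehicle, against 1473 and 1428 CPM in fresh (log2 fold change 0.87 ± 0.17 SE, adjusted p = 0.012). Eno1, an enolase, was at 1404, 1556 and 1310 CPM in vehicle, against 829 and 887 CPM in fresh (log2 fold change 0.76 ± 0.18 SE, adjusted p = 0.0406). The 2 lactate dehydrogenase genes went opposite ways: Ldha, the fourth gene that rose, was at 2282, 2452 and 2502 CPM in vehicle, against 1610 and 1381 CPM in fresh (log2 fold change 0.71 ± 0.17 SE, adjusted p = 0.0479), while Ldhb fell to 85.6, 121 and 94.2 CPM in vehicle, against 340.3 and 228 CPM in fresh (log2 fold change -1.49 ± 0.35 SE, adjusted p = 0.0425). Gapdh did not pass without vehicle replicate 3 (adjusted p = 0.0546) or fresh replicate 1 (adjusted p = 0.0528). Eno1 and Ldha passed in none of the fits that left out 1 library (adjusted p up to 0.207 for Eno1 and 0.173 for Ldha), and Ldhb passed only without fresh replicate 2 (adjusted p up to 0.49). Of 27 genes of the pentose phosphate route and nucleotide synthesis, 2 rose and 0 fell (median 0.71, 25 of 27 above 0): Nme1, a nucleoside diphosphate kinase (487, 423 and 416 CPM in vehicle, against 195 and 166 CPM in fresh; log2 fold change 1.32 ± 0.24 SE, adjusted p = 0.0109), and Taldo1, transaldolase (662, 707 and 491 CPM in vehicle, against 328 and 330.4 CPM in fresh; log2 fold change 0.94 ± 0.23 SE, adjusted p = 0.0479). Nme1 did not pass without fresh replicate 2 (adjusted p = 0.0539), and Taldo1 passed only without vehicle replicate 3 (adjusted p up to 0.219). Cad, the first enzyme of pyrimidine synthesis, was at 262, 255 and 324 CPM in vehicle, against 67 and 85.6 CPM in fresh (adjusted p = 0.0722). Tkt, transketolase, was at 912, 818 and 800 CPM in vehicle, against 554 and 506 CPM in fresh (adjusted p = 0.0735). Neither passed.

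Among 25 genes of the NRF2 and glutathione response, 2 rose and 0 fell (median 0.20, but 0.38 without fresh replicate 1 and 0.36 without fresh replicate 2): Gclm, a subunit of the enzyme that limits glutathione synthesis, was at 655, 612 and 587 CPM in vehicle, against 205 and 184 CPM in fresh (log2 fold change 1.7 ± 0.21 SE, adjusted p = 0.000556). Txnrd1, thioredoxin reductase, was at 449, 348 and 431 CPM in vehicle, against 112 and 194 CPM in fresh (log2 fold change 1.47 ± 0.29 SE, adjusted p = 0.0126). Gclm passed without each library in turn; Txnrd1 did not pass without vehicle replicate 1 (adjusted p = 0.0523) or fresh replicate 1 (adjusted p = 0.213). Gstm1 was at 151, 153 and 142 CPM in vehicle, against 568 and 291 CPM in fresh (adjusted p = 0.0669). Gpx4 was at 212, 214 and 185 CPM in vehicle, against 533 and 271 CPM in fresh (adjusted p = 0.141). Neither passed. In iron and heme metabolism 1 of 20 genes rose (median 0.08, but 0.01 without vehicle replicate 3 and 0.41 without fresh replicate 2): Tfrc, through which cells import transferrin-bound iron, was at 95.2, 115 and 100 CPM in vehicle, against 17 and 24.3 CPM in fresh (log2 fold change 2.37 ± 0.52 SE, adjusted p = 0.0285), and passed in none of the fits that left out 1 library (adjusted p up to 0.293). The ferritin genes Ftl1 (5444, 8540 and 5883 CPM in vehicle, against 4746 and 2830 CPM in fresh; adjusted p = 0.21) and Fth1 (2960, 3874 and 2637 CPM in vehicle, against 2446 and 1539 CPM in fresh; adjusted p = 0.264) and the iron exporter gene Slc40a1 (67.4, 126 and 76.9 CPM in vehicle, against 7.86 and 0.585 CPM in fresh; adjusted p = 0.214) did not pass. Of 32 nuclear genes of oxidative phosphorylation 0 passed in edgeR (5 at an unadjusted p under 0.05, 2 called by DESeq2 and 1 by limma voom; median 0.26, but 0.56 without fresh replicate 1 and 0.02 without fresh replicate 2). Cyc1, of complex III, was at 345, 320.1 and 239 CPM in vehicle, against 171 and 204 CPM in fresh (adjusted p = 0.22). Cycs, cytochrome c, was at 201, 210.3 and 224 CPM in vehicle, against 117 and 58.1 CPM in fresh (adjusted p = 0.0569). Uqcrq, of complex III, was at 307, 289 and 259 CPM in vehicle, against 168 and 96.2 CPM in fresh (adjusted p = 0.111). Cox5a was at 325, 276 and 306 CPM in vehicle, against 203 and 110 CPM in fresh (adjusted p = 0.152). Of 11 tested genes of polyamine synthesis 0 passed in edgeR (4 at an unadjusted p under 0.05, 2 called by DESeq2 and 1 by limma voom; median 0.57, but -0.01 without vehicle replicate 1). Srm, the spermidine synthase, was at 374, 372 and 444 CPM in vehicle, against 256 and 214 CPM in fresh (adjusted p = 0.271). Sat1, which acetylates polyamines for export, was at 39.6, 69.5 and 43.8 CPM in vehicle, against 139 and 80.1 CPM in fresh (adjusted p = 0.354). Odc1, the first enzyme of that route, was at 240, 224 and 263 CPM in vehicle, against 120.2 and 124 CPM in fresh (adjusted p = 0.125). Eif5a was at 2022, 1843 and 1997 CPM in vehicle, against 1353 and 1337 CPM in fresh (adjusted p = 0.135).

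Of 25 genes of DNA methylation and chromatin, 2 rose and 0 fell (median 0.28, but 0.16 without fresh replicate 1 and 0.65 without fresh replicate 2). Dnmt1, which copies methylation onto new DNA strands, was at 661, 836 and 801 CPM in vehicle, against 189 and 287 CPM in fresh (log2 fold change 1.73 ± 0.33 SE, adjusted p = 0.0126). Hells, a remodeller needed for that methylation, was at 138, 123 and 119 CPM in vehicle, against 27.2 and 32 CPM in fresh (log2 fold change 2.13 ± 0.45 SE, adjusted p = 0.0228). Dnmt1 did not pass without fresh replicate 1 (adjusted p = 0.199) and Hells did not pass without any 1 library (adjusted p up to 0.233). Uhrf1, which recruits DNMT1, was at 449, 565 and 496 CPM in vehicle, against 18.9 and 183 CPM in fresh (adjusted p = 0.0557). Hmgb2 was at 1451, 1237 and 1260 CPM in vehicle, against 731 and 620.2 CPM in fresh (adjusted p = 0.0534). Neither passed. Of 30 genes that earlier work linked to HSC aging, 1 rose and 1 fell (median -0.48, but -0.98 without vehicle replicate 1 and -0.25 without fresh replicate 2): Plscr2, a phospholipid scramblase gene, was at 359, 264 and 273 CPM in vehicle, against 53.8 and 70.1 CPM in fresh (log2 fold change 2.31 ± 0.37 SE, adjusted p = 0.00399) and did not pass without fresh replicate 1 (adjusted p = 0.0747), and the gene that fell was Jun, described above. Itgb3, which the aging, integrin and megakaryocyte lists share, was at 186, 251 and 172 CPM in vehicle, against 30.1 and 132 CPM in fresh (adjusted p = 0.199). None of the 22 tested genes of selectin ligands and their glycosylation passed in edgeR (23 listed, median 0.06, but -0.08 without fresh replicate 1 and 0.46 without fresh replicate 2; 3 at an unadjusted p under 0.05, 1 called by DESeq2 and 0 by limma voom). Tpst2, which sulfates PSGL-1, was at 162, 139 and 142 CPM in vehicle, against 279.5 and 227 CPM in fresh (adjusted p = 0.233). St3gal1, a sialyltransferase, was at 46.2, 52.3 and 32.6 CPM in vehicle, against 78.9 and 89.9 CPM in fresh (adjusted p = 0.494). B4galt5 was at 58.9, 54.2 and 46.2 CPM in vehicle, against 23.3 and 20.5 CPM in fresh (adjusted p = 0.301). None of 25 integrin and homing genes passed in edgeR (median -0.01, but -0.10 without vehicle replicate 2 and 0.54 without fresh replicate 2; 6 at an unadjusted p under 0.05, 2 called by DESeq2 and 2 by limma voom). Itga6, the alpha chain of a laminin receptor, was at 289.9, 307 and 387 CPM in vehicle, against 85.9 and 271 CPM in fresh (adjusted p = 0.26). Itga4, the alpha chain of VLA-4, was at 16, 12.6 and 29.4 CPM in vehicle, against 78.5 and 101 CPM in fresh (adjusted p = 0.0835). Cd63, a tetraspanin, was at 1218, 1678 and 1047 CPM in vehicle, against 762 and 487 CPM in fresh (adjusted p = 0.0845). Of 32 genes of lysosomes and autophagy 0 passed in edgeR (6 at an unadjusted p under 0.05, 2 called by DESeq2 and 2 by limma voom; median 0.11, but -0.01 without vehicle replicate 2 and -0.02 without fresh replicate 2). Ctsb, cathepsin B, was at 422, 435 and 439.6 CPM in vehicle, against 264 and 339.7 CPM in fresh (adjusted p = 0.331). Ctsd, cathepsin D, was at 1476, 3172 and 1365 CPM in vehicle, against 589 and 481 CPM in fresh (adjusted p = 0.0828). Bnip3l, a mitophagy receptor, was at 156, 126 and 140.1 CPM in vehicle, against 254 and 247 CPM in fresh (adjusted p = 0.0657). Map1lc3b was at 333, 414 and 261 CPM in vehicle, against 671 and 510.3 CPM in fresh (adjusted p = 0.213).

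**Figure D4:**
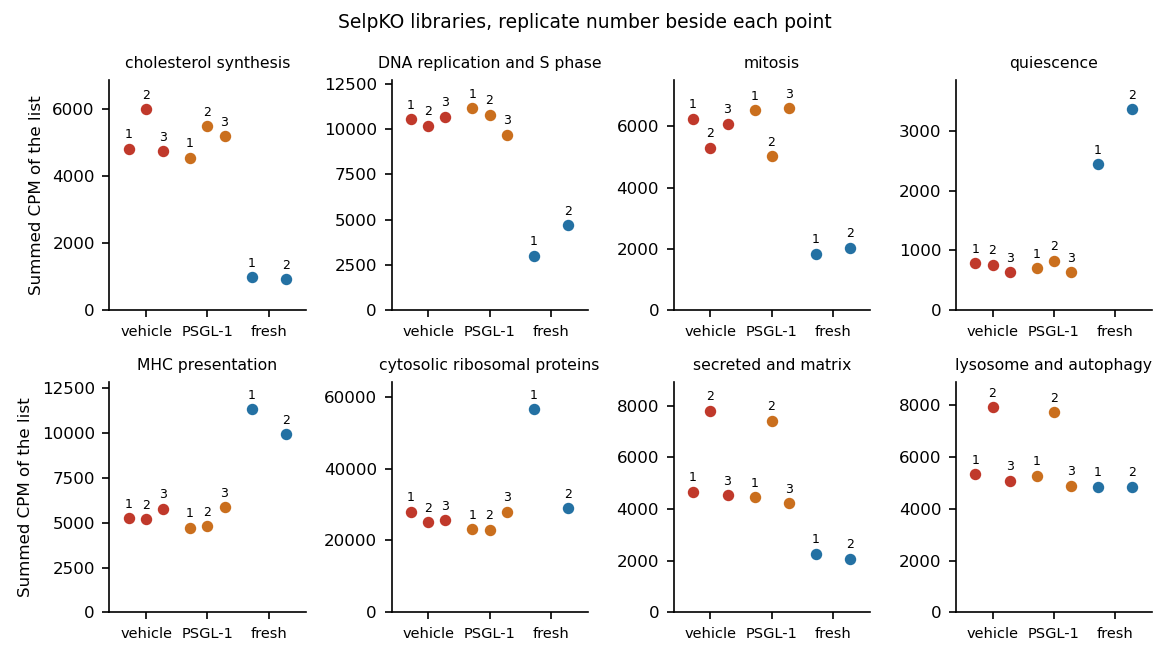
Summed CPM of 8 gene lists in each SelpKO library: 3 vehicle (red), 3 PSGL-1 (orange) and 2 fresh (blue), with the replicate number beside each point and axes from 0. The PSGL-1 libraries are drawn for their levels only and share the fresh libraries as baseline. Cultured and fresh libraries separate for cholesterol synthesis, S phase, mitosis, quiescence, MHC presentation and secreted genes; for ribosomal proteins fresh replicate 1 stands alone, and for lysosomal and secreted genes replicate 2 of vehicle and of PSGL-1 is highest.

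The same culture step in SelpWT cells (3 vehicle and 3 fresh libraries, none shared with the SelpKO comparison) gave 231 calls, 1.64% of genes tested, of which 174 rose (1.23%) and 57 fell (0.404%). Of the 250 genes called in SelpKO cells, 143 were also called in SelpWT (103 higher, 40 lower), and 172 of the 174 that rose and 76 of the 76 that fell had the same sign in SelpWT. Whether the change itself differed between genotypes was tested as the SelpKO minus SelpWT difference of the 2 log2 fold changes: 0 of 14124 genes passed (0%), with 353 at an unadjusted p under 0.05. limma with voom also gave 0, while DESeq2 gave 73 (51 with the SelpKO value higher, 22 lower). Without fresh replicate 2 of SelpKO, edgeR gave 31, all with the SelpKO value higher, and every other fit that left out 1 SelpKO library gave 0. So no response described above was shown to be particular to SelpKO cells in the edgeR fit with all libraries.

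Several lists moved the same way in both genotypes, though not always by the same amount. The median log2 fold change of cholesterol synthesis was 2.69 in SelpKO and 2.29 in SelpWT, with 12 rises in each. That of interferon-stimulated genes was -1.25 in SelpKO and -1.22 in SelpWT, and that of MHC presentation -1.05 in SelpKO and -0.97 in SelpWT. Quiescence had -1.21 in SelpKO and -0.90 in SelpWT, with a median difference of -0.53 and 6 of 25 differences above 0. The order of the 2 medians rests on fresh replicate 2 of SelpKO, without which the SelpKO median was -0.61. Mean summed levels of this list were 728 CPM in SelpKO and 696 CPM in SelpWT vehicle, and 2903 and 1907 CPM in fresh. HSC aging genes had -0.48 in SelpKO and -0.95 in SelpWT. T and NK cell markers, 6 of them tested, had -0.22 in SelpKO, with 3 values above 0 and 3 below, and -4.17 in SelpWT. In SelpKO 4 of the 6 had no count in a group, and the median was 0.29 with these set to their bound. No bound was set for the SelpWT median, so it is no measure of size. The mean summed level of the 14 listed was 37.45 CPM in vehicle and 55.9 CPM in fresh for SelpKO, and 73.5 and 102 CPM for SelpWT. Cell cycle lists had higher medians in SelpKO: 1.63 in SelpKO and 0.96 in SelpWT for S phase, where 31 of 34 differences were above 0, and 1.62 in SelpKO and 0.96 in SelpWT for mitosis, where 30 of 32 were above 0. Mean summed levels were alike after culture: 10460 CPM in SelpKO and 10200 CPM in SelpWT for S phase, 5879 and 5598 CPM for mitosis. In fresh libraries they were lower in SelpKO: 3851 against 5563 CPM for S phase and 1939 against 2944 CPM for mitosis. For S phase the SelpKO fresh libraries were at 3012 and 4690 CPM, against 5990, 4717 and 5981 CPM in SelpWT. Fresh and cultured levels were not tested separately. Over all genes tested 52% of differences were above 0, with a median of 0.04. No gene of either list passed the test of the difference. Ribosomal protein genes had a median of -0.66 in SelpKO and -0.14 in SelpWT, with 0 of 40 differences above 0; the SelpKO value rests on fresh replicate 1, as given above. Among the 5 genes with the smallest p for the difference were Kif11, Stau1, Tnfaip2 and Wdr62. Kif11, the spindle motor, had 121, 71.7 and 98.9 CPM in SelpWT vehicle and 40.2, 89 and 76.7 CPM in SelpWT fresh libraries, a difference of 2.18 ± 0.50 SE (edgeR quasi-likelihood test, adjusted p = 1). In SelpKO libraries Kif11 stood at 141, 174 and 158 CPM in vehicle, against 17.4 and 29.9 CPM in fresh, so the SelpKO fresh values were the lower ones. Stau1, a binder of double-stranded RNA, was at 102, 46.2 and 77.5 CPM in vehicle, against 155 and 141 CPM in fresh in SelpKO and differed by -1.86 ± 0.45 SE (edgeR quasi-likelihood test, adjusted p = 1). Tnfaip2 was at 355, 315 and 454 CPM in vehicle, against 83.5 and 123 CPM in fresh in SelpKO (log2 fold change 1.91 ± 0.29 SE, adjusted p = 0.0025 for vehicle against fresh) and differed by 1.45 ± 0.36 SE (edgeR quasi-likelihood test, adjusted p = 1). Wdr62, a spindle pole protein, was at 62.7, 67.4 and 89.95 CPM in vehicle, against 12.4 and 4.68 CPM in fresh in SelpKO and differed by 3.26 ± 0.84 SE (edgeR quasi-likelihood test, adjusted p = 1).

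**Figure D5:**
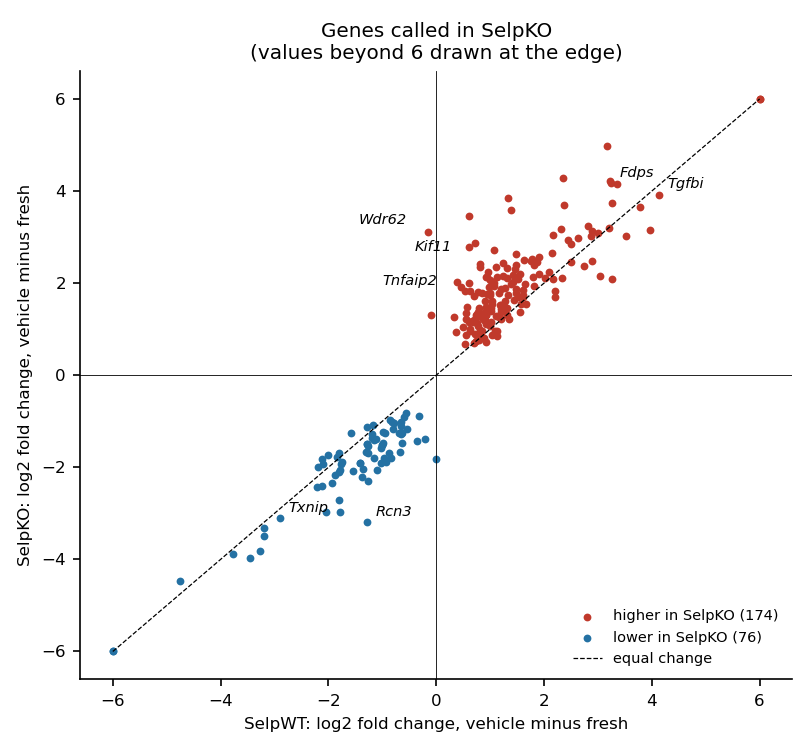
log2 fold change of vehicle against fresh in SelpWT (horizontal) and SelpKO (vertical) for the 250 genes called in SelpKO, with values beyond 6 at the edge; red genes rose and blue genes fell in SelpKO, and the dashed line marks equal change. Signs match for 172 of 174 red and 76 of 76 blue genes. The genes were chosen by their SelpKO value, so their distance from the line is no test.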

How the data were processed

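Total RNA of sorted bone marrow HSCs was extracted with a silica column kit and amplified with a SMART-Seq low-input kit, per the labels' protocols. The authors deposited 1 table of raw counts per gene symbol; per the submitters' processing notes, reads were aligned with STAR 2.7.5c to mm10 and counted with featureCounts, with MultiQC 1.10 and DESeq2 also named. The annotation and strand setting of the counting are not stated, so paralogs, overlapping genes and antisense genes may share reads. The 16 libraries held 12590539 to 24690824 counts, and with 2 fresh SelpKO libraries the precision rests on few samples. No row lacked a gene name.

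All 16 libraries entered 1 model with a mean for each of the 6 groups in edgeR 4.0.16 (R 4.3.3; filterByExpr, TMM scaling, robust quasi-likelihood test); the common biological coefficient of variation was 0.977. SE is the log2 fold change divided by the square root of F. Levels are CPM of the library total, and the floor is 3 counts in a library. The step was tested on simulated data drawn from a profile pooled over all libraries, with set changes in SelpKO vehicle only. That setting did not hold the difference between the fresh SelpKO libraries, so it does not show how many of the calls are right. Alternatives were DESeq2 1.42.0, limma 3.58.1 with voom and library weights, other scalings, filters, libraries and replicate blocks. The text names Selp and Selplg, up to 10 genes with the largest changes each way among calls at a mean of at least 5 CPM with no overlap, up to 4 members of each list with the smallest p, and the 5 genes with the smallest p for the genotype difference; any other gene is marked as picked after its values were known, or completes a count. A few genes that this rule takes in are not reported here. The members and lists were chosen with earlier results of these data known. No 2 libraries were alike within sampling noise. Promoters are from RefSeq, GRCm38.p6, in which 14110 of the tested genes matched by symbol.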

Additional observations from a re-analysis of the deposited data

How the results depend on the processing

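With the replicate numbers of the titles as a block, 206 genes passed in SelpKO, 198 in SelpWT and 0 for the difference between them; with a block for the sets of 6 consecutive library numbers the counts were 222, 203 and 0. Over all genes, vehicle and fresh libraries of the same title number or set did not deviate together: deviations from the group means correlated at -0.046 to 0.046 in SelpKO and -0.052 to 0.037 in SelpWT, same-numbered or not. Pairs of cultured libraries were not compared in this way, so a tie between them is not covered by these values.

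The main counts were 250 for SelpKO and 231 for SelpWT. A required change of over 2-fold left 35 in SelpKO and 29 in SelpWT. Without the sparse SelpWT PSGL-1 library there were 554 and 440, without all 5 PSGL-1 libraries 422 and 389, with DESeq2 916 and 866, and with limma voom 542 and 706. Leaving out 1 library at a time gave 76 to 488 in SelpKO and 85 to 153 in SelpWT. For the difference, DESeq2 gave 73 genes and the fits without 1 library gave 0 to 31, against 0. RLE scaling (256 in SelpKO, 159 higher and 97 lower), no low-count filter (244), a stricter filter (261) and the SelpKO groups alone (293) kept the SelpKO count within 1.5 times. The share of higher calls moved by over 10 percentage points with limma voom (180 higher, 362 lower) and the groups alone (173 higher, 120 lower), against 174 higher and 76 lower. The median over all genes moved by less than 0.1 under every scaling, between -0.09 and 0.01. No named gene that passed changed sign while passing under an alternative; 658 list medians moved by less than the spread and 30 by more. Depth limits genes near 0: a floor of 3 counts was 0.122 to 0.223 CPM in the SelpKO libraries. The cause of these shifts was not tested.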

Other observations

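Some gene families outside the lists were picked after their values were seen and are given as descriptions. Of 8 GIMAP GTPases, which act in lymphocyte survival, 2 fell in SelpKO vehicle culture (Gimap1 and Gimap6), 8 of 8 had values below 0, and the median log2 fold change was -3.35 in SelpKO and -4.75 in SelpWT. Gimap1 was at 96.2, 74.4 and 90.8 CPM in vehicle, against 541 and 409.5 CPM in fresh (log2 fold change -2.43 ± 0.26 SE, adjusted p = 0.00028). Of 14 tubulins, 4 rose (Tubb5, Tuba1b, Tubb4b and Tuba1c) with a median of 1.21, and of 20 genes of nuclear transport 4 rose (Rangap1, Ran, Kpna2 and Ranbp1) with a median of 1.02. Of 25 genes of the actin cytoskeleton 6 rose (Lcp1, Arhgdia, Coro1c, Cfl1, Arpc1b and Actb) with a median of 0.24. Cbx5, the heterochromatin protein HP1 alpha, and Macroh2a1, a histone variant, rose among 5 genes of those families. Among 13 translation elongation factors 2 fell, Eef2 (1278, 1248 and 1183 CPM in vehicle, against 2466 and 2216 CPM in fresh; log2 fold change -0.90 ± 0.22 SE, adjusted p = 0.0479) and Eef1a1 (2881, 3116 and 2684 CPM in vehicle, against 6057 and 4945 CPM in fresh; log2 fold change -0.91 ± 0.18 SE, adjusted p = 0.014), both higher in fresh replicate 1 than in fresh replicate 2. GIMAP genes, tubulins and elongation factors have close paralogs or pseudogenes, so their reads may be shared.

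Vehicle replicate 2 stood above the other SelpKO vehicle libraries for several secreted, iron and lysosomal genes, a pattern seen after the values were known. The summed level of secreted and matrix genes was 7812 CPM there, against 4673 and 4543 CPM in the other vehicle libraries, that of iron and heme genes 13540 CPM, against 9395 and 9523 CPM, and that of lysosomal genes 7931 CPM, against 5347 and 5083 CPM. SelpKO PSGL-1 replicate 2 had 7415 CPM for secreted and matrix genes, against 4453 and 4221 CPM in the other libraries of its group, and SelpWT vehicle replicate 2 had 6698 CPM, against 4394 and 3440 CPM. SelpWT PSGL-1 replicate 1 had 5831 CPM, against 3351 CPM in replicate 2. These 4 libraries are the cultured ones in 1 set of 6 consecutive library numbers; the fresh ones of that set had 2266 CPM in SelpKO and 2090 CPM in SelpWT, against 2075 CPM in the other SelpKO fresh library and 1900 and 1894 CPM in the other SelpWT ones. Whether a set shares a culture or a preparation was not tested.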
